A study of Mus musculus with 18 samples.

Results

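Myt1, Myt1l and St18 are transcription factor genes that make up the MYT1 family and are described here in nuclei of the mouse forebrain at embryonic day 14. The 3 members were found by their symbols in the deposited gene annotation, among 55335 genes, and each matched 1 row. Nuclei were isolated from 9 embryos of a C57BL/6 line that carries the frameshift allele Myt1l S710fsX, with 3 wild type (WT), 3 heterozygous (Het) and 3 homozygous mutant (KO) embryos from Het intercrosses. Every cell of a Het or KO embryo carried the allele, and no Cre or transgene was used. Nuclear RNA was sequenced with a combinatorial barcoding kit (Scale Biosciences), in 2 runs for each embryo and 18 libraries in all. Both runs of an embryo were added together, and embryos served as replicates (n = 3 for each genotype). Genotypes were taken from the sample titles. For run 1 the genotype field says WT throughout, in conflict with the titles. The questions were where each paralog was expressed along the path from progenitor to neuron, and whether Myt1 or St18 RNA rose where MYT1L was lost.

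MYT1 family proteins bind DNA through clusters of CCHHC zinc fingers, and they recruit SIN3 and LSD1 corepressor complexes to silence genes. Myt1 is known from neural progenitors that leave the cell cycle, where it opposes Notch targets, and from the oligodendrocyte lineage. Myt1l is turned on in postmitotic neurons, is held through life, and represses non-neuronal genes in the reprogramming of other cells to neurons. St18, also called Myt3, has been described in neurons of the medial ganglionic eminence (MGE), the ventral zone that produces Lhx6 interneurons and pallidal neurons.

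In GRCm38 coordinates, Myt1 spans chr2:181763332-181827797, Myt1l chr12:29528384-29923213 and St18 chr1:6487231-6860940, all on the plus strand. Gene bodies were 64.5, 394.8 and 373.7 kb long, and merged exons 7.19, 14.02 and 6.46 kb. Nuclear RNA holds introns, so a long gene can collect more UMIs (unique molecular identifiers, 1 per captured RNA) than a short one at an equal number of transcripts. The longest annotated coding sequences held 7 CCHHC motifs in Myt1, 6 in Myt1l and 6 in St18, searched as C-x4-C-x4-H-x7-H-x5-C in the translated GENCODE transcripts. The allele name S710fsX points to codon 710, with 3 of the 6 Myt1l motifs before it and 3 after it. In the annotated transcript of 1187 codons this is a serine codon in exon 15 of 25, at chr12:29849337-29849339. In the annotated transcripts of 1185 codons, codon 710 is an alanine, so codon and exon numbers depend on the transcript. The following stretch of the reference (chr12:29849316-29849360, plus strand, coding exon) shows the serine codon in capitals, because the allele is named for it. The bases changed in the allele were not located here.

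Myt1l around codon 710: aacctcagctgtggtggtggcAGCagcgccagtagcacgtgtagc

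A frameshift changes the protein and leaves the gene transcribed, so Myt1l RNA was counted in all genotypes and does not check the genotype labels. The 250 bases before the annotated gene start are shown for the members found in the RefSeq promoter table used here (GRCm38.p6), Myt1 and Myt1l, because the KO estimates of both lay above 0 in the neuron classes described below. Capitals mark the core motif of the family, AAGTT or its reverse complement AACTT.

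Myt1, chr2:181763082-181763331: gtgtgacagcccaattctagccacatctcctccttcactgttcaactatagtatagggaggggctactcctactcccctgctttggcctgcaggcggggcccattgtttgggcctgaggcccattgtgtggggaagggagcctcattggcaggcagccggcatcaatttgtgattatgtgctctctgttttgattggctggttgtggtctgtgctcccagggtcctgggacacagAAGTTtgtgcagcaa

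Myt1l, chr12:29528134-29528383: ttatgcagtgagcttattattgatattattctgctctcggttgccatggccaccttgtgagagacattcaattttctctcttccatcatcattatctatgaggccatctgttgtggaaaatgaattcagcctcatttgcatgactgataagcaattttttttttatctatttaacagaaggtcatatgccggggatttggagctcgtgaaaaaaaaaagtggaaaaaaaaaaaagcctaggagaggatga

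The Myt1 stretch held 1 match, 15 bases before the start, and the Myt1l stretch held none. Of 32851 RefSeq stretches of this length, 35.3% held at least 1 match, so the match describes the sequence and no more. RefSeq lists other starts downstream for both genes. The stretches before the other Myt1 starts held 1 match each, and of those before the other 4 Myt1l starts 1 held 1 match and 1 held 2. St18 has no entry in the promoter table used.

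Nuclei were sorted into classes by marker genes, without the 3 members, Xist and Y-linked genes among the genes used for clustering. The names are short for "radial glia-like" and so on, since they rest on marker lists. Of 194590 nuclei, 31509 were radial glia (dividing stem cells of the ventricular zone), 13181 excitatory intermediate progenitors, 19626 newborn and 17627 maturing excitatory neurons, and 25662 excitatory neurons that matched neither the newborn nor the maturing list ("other excitatory"). A further 5248 were inhibitory progenitors, 51588 inhibitory neurons, 21194 of these of MGE type, and 2042 Cajal-Retzius cells, the Reln-secreting neurons of the marginal zone. Defining markers were where the names require them. The level of Eomes was 886 CPM (UMIs of a gene scaled to a fixed total for the class) in intermediate progenitors and 10.6 CPM in maturing excitatory neurons, Hs3st4 was at 2094 CPM in maturing and 64.4 CPM in newborn excitatory neurons, and Trp73 was at 996 CPM in Cajal-Retzius cells and at most 2.27 CPM in the other 8 classes. A cluster of 8430 nuclei led by Car10 and Samd3 met 4 of 8 Cajal-Retzius markers but not Trp73 and was kept out. It made up 3.82% ± 1.97 of WT, 5.12% ± 3.32 of Het and 4.23% ± 2.00 of KO nuclei (SD, n = 3 each). Unnamed clusters held 13.7% of nuclei. No cluster was named as oligodendrocyte progenitors.

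The nuclei used gave 42860745 to 73841130 UMIs per embryo, from 14810 to 26096 nuclei. Xist, which is expressed from the inactive X of females, was at 374 CPM in WT 3 and at 0.41 to 0.72 CPM in the other 8 embryos, and sex was therefore not balanced over the genotypes. Values without WT 3 are given where they change a call. Myt1l was the most counted member, with 731308 UMIs in all nuclei used. Within a class, a change in transcripts per nucleus and a shift in the mix of its nuclei cannot be told apart.

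By class, Myt1 was highest in intermediate progenitors and lower in the neurons of both lineages, although 1 inhibitory cluster described further on held more. In WT embryos its level in radial glia was 42.1, 26.7 and 31.9 CPM, and in excitatory intermediate progenitors it was 368, 406 and 446 CPM, with all 3 embryos far above any radial glia value. The rise from radial glia to intermediate progenitors was 12.1-fold as the mean over the 9 embryos, all of which showed it. The radial glia level lies near the background of free RNA described further on, so this fold depends on that background. From intermediate progenitors to newborn excitatory neurons the level fell to 215 ± 5.88 CPM (SD, n = 3), and in maturing excitatory neurons it was 69.2 ± 5.93 CPM. Inhibitory progenitors held 345 ± 7.91 CPM and inhibitory neurons 157 ± 2.80 CPM. The order of the 9 classes was intermediate progenitors, inhibitory progenitors, newborn excitatory, inhibitory neurons, MGE type, other excitatory, maturing excitatory, Cajal-Retzius cells and radial glia. Only the maturing excitatory and Cajal-Retzius neighbors overlapped between WT embryos.

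Myt1l followed neuronal identity. In radial glia it was at 51.8 ± 16.2 CPM, in excitatory intermediate progenitors at 264 ± 9.69 CPM and in inhibitory progenitors at 305 ± 35.9 CPM (SD, n = 3 WT embryos each). Newborn excitatory neurons held 1945, 2087 and 2126 CPM, and this step from intermediate progenitors was 8.52-fold over the 9 embryos and was seen in every one. The level did not keep rising with maturation. It was highest in the other excitatory neurons, at 2417 ± 216 CPM, and stood at 1567 ± 65.4 CPM in maturing excitatory neurons, 0.779 times the newborn level and below it in all 9 embryos. Inhibitory neurons (1473 ± 33.0 CPM), Cajal-Retzius cells (1395 ± 11.7 CPM) and MGE-type neurons (1374 ± 38.7 CPM) lay close together, and WT embryos of the last pair overlapped, as did those of both progenitor classes.

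St18 was high in both progenitor classes outside radial glia and in part of the inhibitory neurons. Its level was 227 ± 15.2 CPM in excitatory intermediate progenitors and 234 ± 29.4 CPM in inhibitory progenitors (SD, n = 3 WT embryos each), which overlapped. The inhibitory progenitor class is 1 cluster. An unnamed cluster of cycling nuclei led by Nkx2-1 and Sfta3-ps, outside every class, held more, 494 ± 94.3 CPM. Newborn excitatory neurons held 70.0 ± 7.26 CPM and radial glia 17.7 ± 5.39 CPM. Among inhibitory neurons, CGE-type nuclei (caudal ganglionic eminence, the source of Prox1 interneurons) held 254, 244 and 207 CPM, MGE-type nuclei 134, 149 and 138 CPM, and striatal projection neurons 20.2, 14.8 and 14.5 CPM. The MGE level was 9.62-fold that of striatal projection neurons and 0.541 times that of the CGE type, and both directions held in 9 of 9 embryos. In maturing excitatory neurons the WT embryos were spread widely, at 131, 71.95 and 92.2 CPM, and in Cajal-Retzius cells they held 71.0, 108 and 39.3 CPM on 152 UMIs in all. In the order of classes, every neighboring pair between MGE-type and newborn excitatory neurons overlapped between WT embryos.

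**Figure D1:**
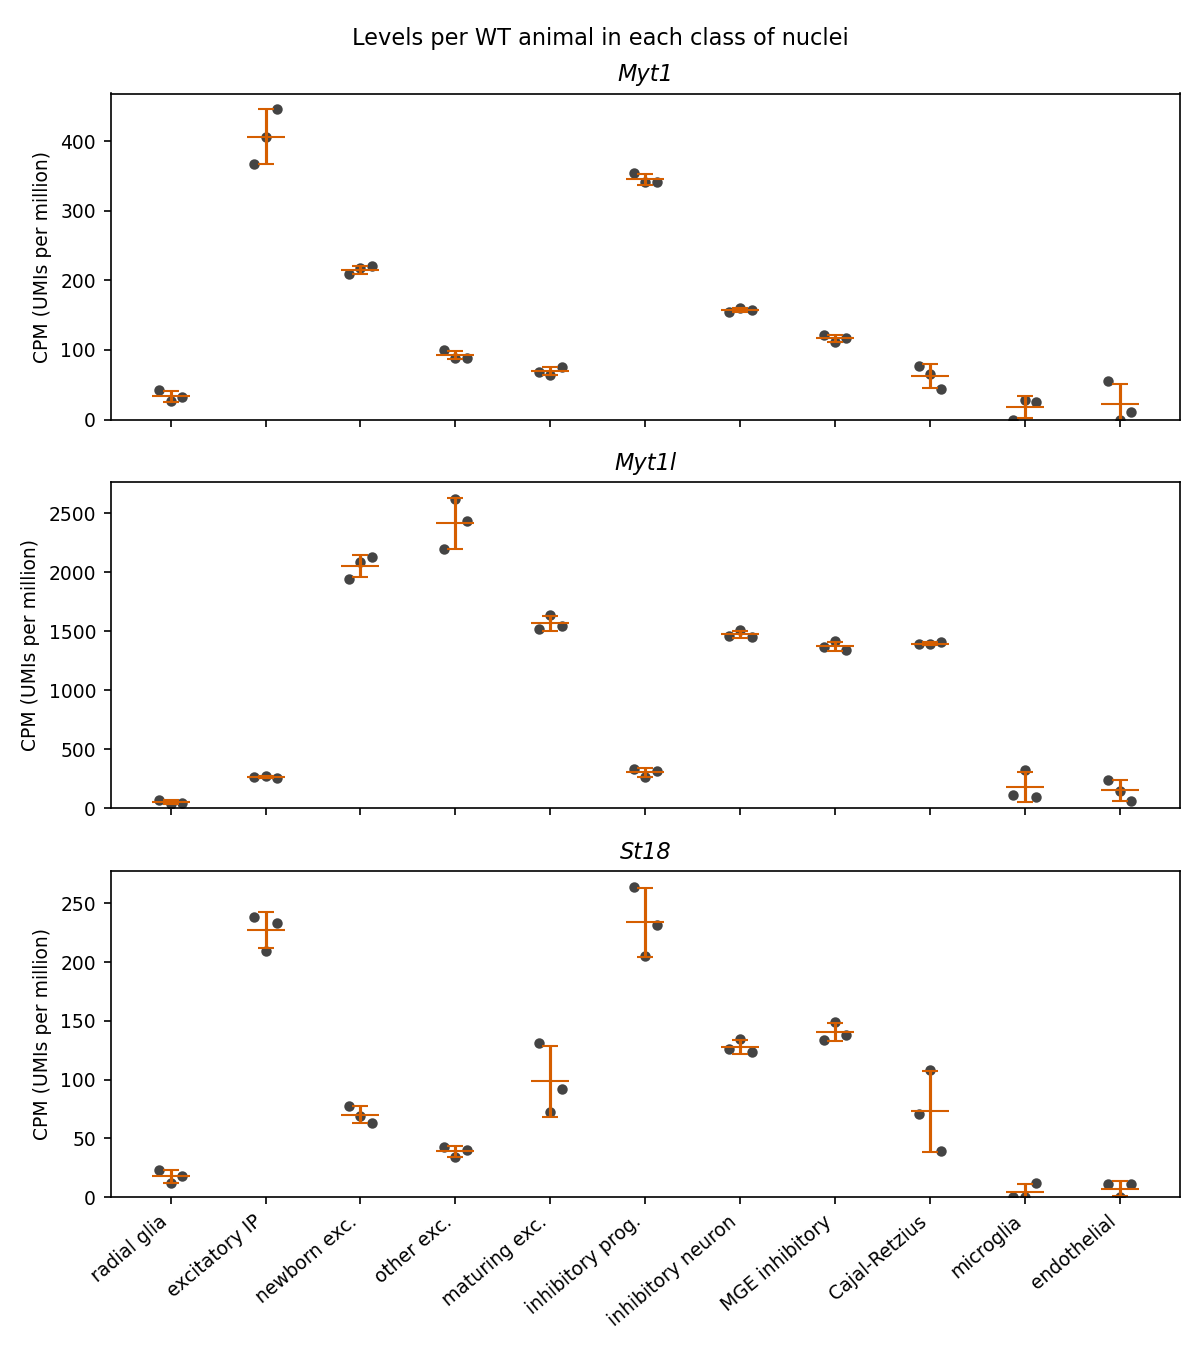
Level of each member in CPM (vertical axis, linear from 0) in 11 groups of nuclei, with 1 point per WT embryo and a bar for the mean ± SD (n = 3). Among the groups drawn, both Myt1 and St18 are highest in the progenitor classes outside radial glia, St18 at 227 and 234 CPM on average. Myt1l is high in every neuron class, from 1374 to 2417 CPM on average, and low in progenitors. CGE-type nuclei, with St18 at 235 CPM on average, are not drawn.

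Free RNA gives a background that has to be set beside the low values. In microglia, which should lack all members, 22.9% ± 3.80 of WT nuclei held a Myt1l UMI, 4.46% ± 3.89 a Myt1 UMI and 1.04% ± 1.80 an St18 UMI. In endothelial nuclei these shares were 17.0% ± 4.25, 3.37% ± 3.49 and 1.82% ± 1.62 (SD, n = 3). Median depths were 2210 UMIs in microglia and 2635 in endothelial nuclei, on 95 and 92 WT nuclei. Radial glia, at a median of 2559 UMIs, held Myt1l in 10.6% ± 0.664 of nuclei. That share lies below both background groups and is read as background. Myt1 in 6.79% ± 0.935 and St18 in 3.45% ± 0.538 of radial glia lay near those groups' spread. In excitatory intermediate progenitors Myt1l was found in 26.1% ± 1.59 of nuclei, at 264 CPM and a median of 2306 UMIs, close to the microglia with their 178 ± 128 CPM. The microglia value rests on 47 UMIs in WT nuclei. Radial glia, read as background above, held 51.8 CPM, and intermediate progenitors lay above them in 9 of 9 embryos. How much of the Myt1l level of intermediate progenitors is background was not tested. The step to newborn neurons and the level per kb carry the same limit.

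Above the background the shares followed the levels. Myt1 was found in 55.8% ± 7.03 of intermediate progenitors and 19.8% ± 3.17 of maturing excitatory neurons. With every nucleus thinned to 800 UMIs these shares were 27.5% ± 1.89 and 5.30% ± 0.510. Myt1l was found in 89.8% ± 2.28 of newborn and 95.3% ± 2.88 of maturing excitatory neurons, and after thinning in 71.8% ± 0.851 and 67.7% ± 1.56. The unthinned order is thus that of depth, 2309 and 3637 median UMIs, and the thinned order is that of the CPM. St18 was found in 24.0% ± 0.603 of CGE-type, 14.2% ± 1.13 of MGE-type and 3.84% ± 0.299 of striatal projection nuclei, and in 14.01% ± 1.22, 7.98% ± 0.452 and 1.28% ± 0.143 after thinning.

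Levels of different genes were compared only per length. Per kb of gene body, Myt1 was at 6.31 and Myt1l at 0.669 CPM in intermediate progenitors, and at 1.07 and 3.97 CPM in maturing excitatory neurons. Per kb of merged exons the values were 56.5 and 18.8 CPM in intermediate progenitors and 9.62 and 112 CPM in maturing excitatory neurons. On both scales Myt1 exceeded Myt1l in intermediate progenitors and Myt1l exceeded Myt1 in maturing neurons. For St18 in maturing excitatory neurons the scales disagreed on its place, with 0.263 CPM per kb of gene body, below Myt1, and 15.2 CPM per kb of exon, above Myt1.

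Single clusters showed where the members met. The highest Myt1 level, 583 ± 19.5 CPM (SD, n = 3 WT embryos), and the highest St18 level, 639 ± 103 CPM, fell in the same cluster, 3089 inhibitory nuclei led by Aldh1a3 and Slc18a2, in which Myt1l was at 509 CPM. This was the lowest Myt1l level of the 17 clusters named as neurons, where the next lowest inhibitory cluster held 1282 CPM, and inhibitory progenitors held 305 CPM. The cluster fitted no inhibitory subtype, and against the other inhibitory clusters its leading genes included Cdk6, Ccnd2, Dll3 and Notch1, which are known from progenitors, so its name as neurons is uncertain. St18 was next highest, at 494 ± 94.3 CPM, in 2777 unnamed nuclei led by Nkx2-1 and Sfta3-ps, and then at 352 ± 15.8 CPM in MGE-type nuclei led by Lhx6 and Erbb4. The unnamed nuclei were cycling, with Top2a, Mki67, Cenpf and Cdk1 at a summed 4249 CPM, against 4252.5 CPM in inhibitory progenitors. They belonged to no class and entered no genotype test. The other MGE-type clusters held far less St18, 37.8 CPM where Gbx1 and Lhx8 led and 17.8 CPM where Nxph2 and Dgkg led. The St18 level of the MGE type was therefore that of 1 of its 3 clusters. Myt1l was highest, at 3637 CPM, in a cluster of 3585 other excitatory nuclei, where Myt1 (51.6 CPM) was lowest among the neuron clusters and St18 was at 12.9 CPM.

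**Figure D2:**
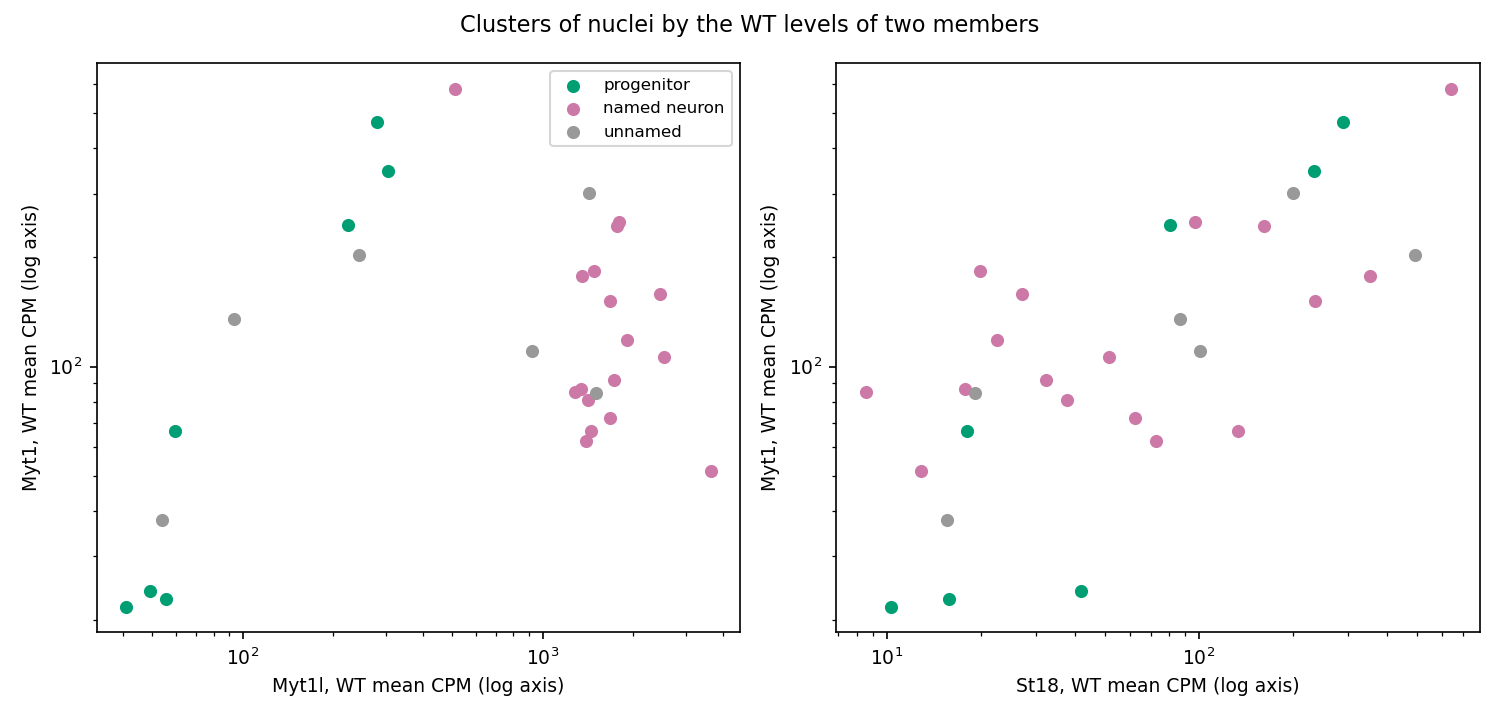
Each point is 1 of 30 clusters with at least 500 nuclei and 20 in each embryo, placed by its mean WT level in CPM on log axes, with Myt1 against Myt1l on the left and Myt1 against St18 on the right. Myt1 rises with Myt1l among progenitors up to 473 CPM and is lower in the neuron clusters at the right, down to 51.6 CPM, while Myt1 and St18 tend to be high in the same clusters.

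Over these 30 clusters, Pearson's r of log2(CPM + 1) in WT means was 0.72 between Myt1 and St18, 0.35 between Myt1 and Myt1l and 0.10 between Myt1l and St18. These are descriptions, since clusters share libraries and animals. A cluster of 733 nuclei without any from WT embryos was left out. The 5 genes with the pattern most like Myt1l were Sgip1, Aplp1, Actl6b, Ppfia2 and Kif5a (r 0.977 to 0.969, among 10212 genes). Actl6b is a neuronal subunit of the BAF chromatin remodeler, Kif5a a kinesin motor of axons and Aplp1 a relative of the amyloid precursor protein. For Myt1 the like genes included Gpcpd1, Scg5, Miat and Trp53bp1 (r 0.889 to 0.860), of which Miat is a long noncoding RNA of neural progenitors and neurons. For St18, Miat came first (r 0.777), followed by Rtn3, Zfp532, Dll3, a divergent Notch ligand, at 0.762, and Top2b.

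Nuclei with an St18 UMI held Myt1 in a larger share than all nuclei of their class did. Of the 4186 intermediate progenitors with an St18 UMI, 66.7% also held Myt1, against 57.5% of all 13181, and the medians were 2596 and 2219 UMIs. In inhibitory neurons 45.6% of the 7363 nuclei with St18 held Myt1, against 31.1% of all, at medians of 2366 and 2386 UMIs. This class pools 9 clusters, among them the Aldh1a3 cluster with the highest Myt1 and St18, and shares within single clusters were not computed. Myt1 was found in 38.6% of newborn excitatory nuclei with Myt1l and in 38.8% of all of them.

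Myt1l RNA was higher in KO than in WT maturing excitatory neurons. In maturing excitatory neurons the 3 WT embryos held 1517, 1641 and 1543 CPM, the Het embryos 1734, 1787 and 1763 CPM, and the KO embryos 2012, 2040 and 1920 CPM. The genotypes did not overlap, and the Het embryos lay between WT and KO. How many of all genes separate the genotypes in this way was not counted, here or in the classes below. The KO mean was 1.27-fold the WT mean. The log2 fold change was 0.37 ± 0.07 (SE), with a 95% interval of 0.22 to 0.51 and an adjusted p of 0.00894 (edgeR quasi-likelihood test, Benjamini-Hochberg over 14591 genes). This was a call, meaning an adjusted p under 0.05 and a log2 fold change beyond 0.2. In this class 2.49% of all genes were called between KO and WT. The call was lost without WT 3 (adjusted p = 0.0603), without KO 2 (0.0594), in run 1 alone (0.512) and with the finer clustering (0.0783), with log2 fold changes of 0.35, 0.33, 0.27 and 0.27. When replicate numbers were blocked, since same-numbered embryos deviated together in this class, the adjusted p was 3.80e-05 (edgeR), and 1150 genes were called in place of 364.

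**Figure D3:**
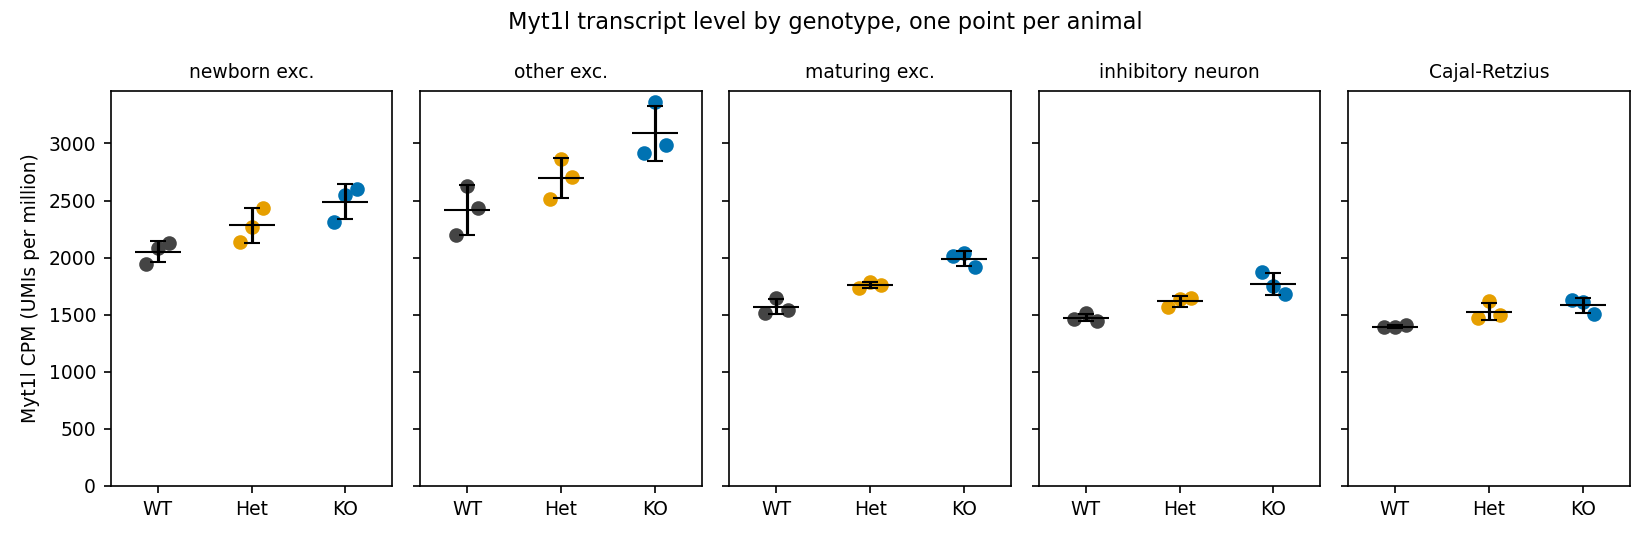
Myt1l level in CPM (vertical axis, linear from 0) in 5 neuron classes, with 1 point per embryo and a bar for the mean ± SD (n = 3 per genotype). The Het mean lies between the WT and KO means in each class, and in maturing excitatory neurons the highest WT embryo, at 1641, is below the lowest Het embryo, at 1734, and the highest Het embryo, at 1787, below the lowest KO embryo, at 1920.

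The same direction appeared in the other neuron classes without passing the threshold. In newborn excitatory neurons WT embryos held 1945 to 2126 CPM, Het embryos 2138 to 2436 CPM and KO embryos 2313 to 2601 CPM, so that neither mutant group overlapped WT. The KO log2 fold change was 0.31 ± 0.07 (adjusted p = 0.873, edgeR), in a class where 0% of genes were called. There 802 of 14328 genes tested had an unadjusted p under 0.05, and DESeq2 called 0. With the replicate block the adjusted p was 0.00128 (edgeR), and 74 genes were called. In other excitatory neurons the KO change was 0.38 ± 0.09 (adjusted p = 0.0645, edgeR), with 0.773% of genes called, and the WT maximum of 2624 CPM lay below the KO minimum of 2914 CPM. It was a call without KO 3 (adjusted p = 0.0395, edgeR), with DESeq2 (0.00867) and with the replicate block (3.02e-05). In inhibitory neurons WT embryos held 1461, 1510 and 1448 CPM and KO embryos 1874, 1753 and 1678 CPM. The change there was 0.30 ± 0.07 (adjusted p = 0.365, edgeR, 0.0268% of genes called), and the adjusted p was 0.0234 with the replicate block, which called 137 genes in place of 5. In MGE-type neurons it was 0.32 ± 0.08 (adjusted p = 0.283, edgeR, 0.0269% called, and 0.0193 with the replicate block). In Cajal-Retzius cells WT embryos held 1388 to 1409 CPM and KO embryos 1502 to 1624 CPM, for a change of 0.19 ± 0.09 (adjusted p = 0.557, edgeR, 0.194% called).

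In progenitors no Myt1l change was called, and the difference between progenitors and neurons was not tested. Radial glia levels were read as background above, and for intermediate progenitors the share of background was not tested. A change in the cells' own Myt1l RNA could therefore be hidden in these classes. In excitatory intermediate progenitors WT embryos held 254 to 273 CPM and KO embryos 205 to 340 CPM, and the KO log2 fold change was -0.02, with a 95% interval of -0.33 to 0.29. In inhibitory progenitors it was -0.02 (-0.27 to 0.22), and in radial glia -0.03 (-0.79 to 0.74). Genotypes overlapped in all 3 classes. In each of them 0% of genes were called in KO by edgeR and 0 genes by DESeq2. The unadjusted p was under 0.05 for 487 of 13400, 284 of 10912 and 453 of 16777 genes tested. A share of 0.05 of the genes is expected with no change, and each count is below it. A fit that overstates the spread between embryos also gives low counts, so these do not show that nothing changed.

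By cluster, the KO mean of Myt1l exceeded the WT mean in 17 of 17 clusters named as neurons, by 1.02- to 1.48-fold with a median of 1.20, and the Het mean lay between them in 16. It exceeded WT in 2 of 7 progenitor clusters (median 0.951) and in 4 of 6 unnamed clusters. Of the progenitor clusters, 4 are radial glia, whose Myt1l was read as background, so they could hardly show a change. The clusters share embryos and are not replicates, and how many of all genes are higher in all 17 was not counted. The largest folds were 1.48 in newborn excitatory nuclei led by Tfap2d, where the means were 2457 CPM in WT, 2961 CPM in Het and 3637 CPM in KO, and 1.48 in other excitatory nuclei led by Tafa1. Against these stood 1.06 in the newborn excitatory nuclei led by Gm27008, Itga4 and Cxcl12, and 1.02 in the inhibitory cluster led by Aldh1a3, in which Myt1 and St18 were highest.

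Heterozygotes showed Myt1l changes of 0.18 ± 0.07 in maturing excitatory, 0.18 ± 0.07 in newborn excitatory and 0.15 ± 0.07 in inhibitory neurons on the log2 scale, each with an adjusted p of 1.00 (edgeR). The fold of means was 1.12, 1.11 and 1.10, and every Het embryo exceeded every WT embryo in these classes. This was also so in MGE-type neurons and Cajal-Retzius cells. In other excitatory neurons Het embryos, at 2514 to 2865 CPM, overlapped WT embryos, at 2194 to 2624 CPM, and the progenitor classes overlapped too. In Het against WT, 0% of genes were called in any class (edgeR). Without WT 3, 1 gene was called in other excitatory and 2 in inhibitory neurons. In maturing excitatory neurons the unadjusted p was under 0.05 for 501 of 14591 genes tested, and DESeq2 called 1 gene. The test of both mutant genotypes together gave Myt1l an adjusted p of 0.0319 in maturing excitatory neurons and from 0.181 to 1.00 in the other 8 classes.

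For Myt1, a paralog asked about as a substitute for MYT1L, the KO estimates were above 0 in the neuron classes and none was called in the edgeR fit to all 9 embryos without the block. In maturing excitatory neurons it was at 67.9, 64.0 and 75.7 CPM in WT, 79.2, 74.7 and 73.4 CPM in Het and 84.3, 75.5 and 86.5 CPM in KO. KO 2 lay just under the highest WT embryo, and the other KO embryos lay above all WT embryos. The KO log2 fold change was 0.27 ± 0.08, with a 95% interval of 0.10 to 0.43 (adjusted p = 0.0908, edgeR, and 0.0191 with the replicate block). In other excitatory neurons it was 0.31 ± 0.07, with an interval of 0.15 to 0.47 (adjusted p = 0.0756, edgeR, 0.0385 without KO 3 and 0.00202 with the replicate block), and WT embryos at 89.0 to 99.95 CPM did not overlap KO embryos at 107 to 115 CPM. In MGE-type neurons the change was 0.22 ± 0.08 (adjusted p = 0.462), again with no overlap, 112 to 122 CPM in WT against 127 to 142 CPM in KO. In run 1 alone the estimate there was -0.026.

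Where Myt1 was most abundant, its genotypes overlapped. In excitatory intermediate progenitors the KO change was 0.05 ± 0.08 (95% interval -0.12 to 0.21), in inhibitory progenitors 0.02 ± 0.10 (-0.18 to 0.22) and in newborn excitatory neurons 0.13 ± 0.08 (-0.04 to 0.29). In the edgeR fit to all 9 embryos without the block, no Myt1 change was called in any of the 9 classes in KO or Het. In other excitatory neurons of KO embryos Myt1 was a call with DESeq2 (adjusted p = 0.0471) and with no filter on low counts (0.0496, edgeR). By cluster, the KO mean exceeded the WT mean in 17 of 17 neuron clusters, by a median of 1.14-fold and by 1.51-fold in the 3585 other excitatory nuclei that formed the cluster with the highest Myt1l and the lowest Myt1 of the neurons. It also exceeded WT in 5 of 7 progenitor clusters (median 1.01) and 5 of 6 unnamed clusters (median 1.04). The clusters share embryos, and how many of all genes are higher in all 17 was not counted. In KO embryos the Myt1 level of maturing excitatory neurons, 82.1 ± 5.84 CPM (SD, n = 3), was still below the 229 ± 15.03 CPM of newborn excitatory neurons.

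St18 moved less uniformly. In maturing excitatory neurons WT embryos held 131, 71.95 and 92.2 CPM and KO embryos 89.8, 70.6 and 85.7 CPM, and the KO change was -0.24 ± 0.18 (95% interval -0.63 to 0.16, adjusted p = 0.628, edgeR). Without WT 1 the estimate was 0.01, so that embryo set the direction. In inhibitory neurons the KO change was 0.30 ± 0.14 (-0.01 to 0.60, adjusted p = 0.799), with KO embryos at 139, 195 and 124 CPM against 126, 134 and 123 CPM in WT, so that KO 3 lay within the WT range. Leaving out 1 embryo gave 0.06 to 0.45 there. In Cajal-Retzius cells KO embryos held 114, 147 and 114 CPM, all above the WT values, and the change was 0.74 ± 0.22 (0.28 to 1.20, adjusted p = 0.214). It was a call without WT 2, at 1.14 with an adjusted p of 0.0301 (edgeR), and fell to 0.48 without WT 3. In inhibitory progenitors, where the WT mean of St18 was highest of the 9 classes, the change was -0.12 ± 0.12 (-0.37 to 0.13), with WT embryos at 205 to 264 CPM and KO embryos at 175 to 234 CPM. These exceeded excitatory intermediate progenitors, the second class by WT mean, in only 3 of 9 embryos. In excitatory intermediate progenitors the change was 0.16 ± 0.11 (-0.07 to 0.38). In other excitatory neurons it was 0.28 ± 0.12 (adjusted p = 0.361, edgeR, and 0.0374 with the replicate block), with WT embryos at 33.8 to 42.8 CPM and KO embryos at 42.4 to 53.9 CPM. In MGE-type neurons the change was 0.31 (adjusted p = 0.749, edgeR). In the edgeR fit to all 9 embryos without the block, no St18 change was called in any of the 9 classes. CGE-type nuclei, which held more St18 than the MGE type, were not fitted on their own. They held 207 to 254 CPM in WT, 277 to 322 CPM in Het and 225 to 416 CPM in KO embryos. By cluster, the KO mean exceeded the WT mean in 10 of 17 neuron clusters, 3 of 7 progenitor clusters and 5 of 6 unnamed clusters. With no filter on low counts the change in Cajal-Retzius cells was a call (0.76, adjusted p = 0.00656, edgeR).

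**Figure D4:**
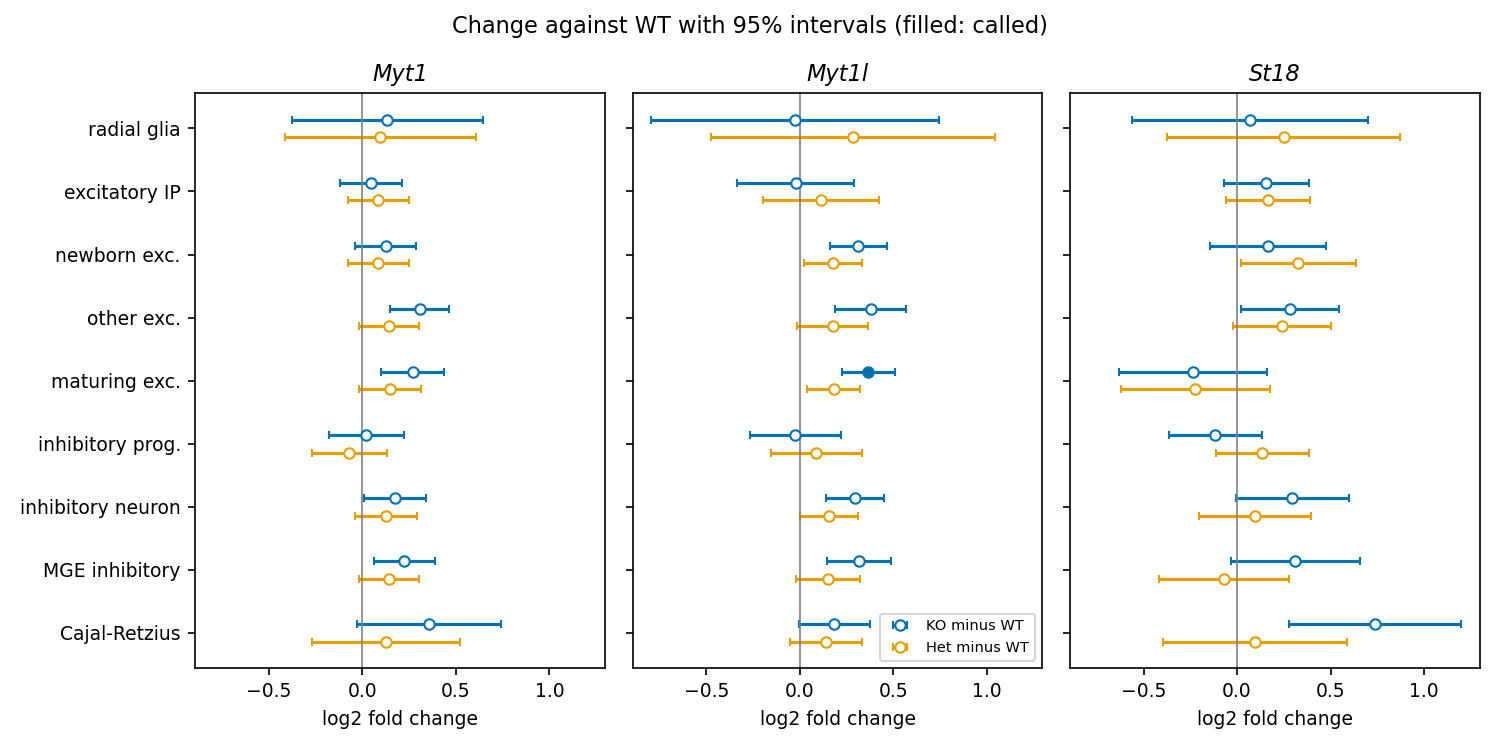
log2 fold change against WT (horizontal axis) of each member in 9 classes, for KO in blue and Het in orange, with 95% intervals from the edgeR fit over 9 embryos. The filled point is the single call, Myt1l in maturing excitatory neurons of KO embryos at 0.37, and the intervals of Myt1 and Myt1l in both neuronal lineages lie mostly above 0, while those of the progenitors span it.

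The KO change was compared between classes in 2 contrasts, inhibitory against maturing excitatory and newborn against maturing excitatory neurons, and no member differed past the threshold in either. Other pairs of classes were not tested. For Myt1l it was 0.08 lower in inhibitory than in maturing excitatory neurons, a difference of -0.08 ± 0.06 (95% interval -0.20 to 0.04, adjusted p = 0.815, edgeR interaction test with the embryo as a term, 0.23% of genes called, which is 40 genes and 10 to 53 when 1 embryo was left out). Between newborn and maturing excitatory neurons it was -0.06 ± 0.07 (-0.20 to 0.09, adjusted p = 0.904, 0.327% called, which is 51 genes and 18 to 49 when 1 embryo was left out, with 18 without WT 3). For St18 these differences were 0.46 ± 0.23 (-0.04 to 0.95, adjusted p = 0.689) and 0.34 ± 0.16 (0.01 to 0.68, adjusted p = 0.585), and for Myt1 -0.11 ± 0.09 and -0.16 ± 0.09 (adjusted p = 0.879 and 0.714). Leaving out 1 embryo gave, in the same order, 0.16 to 0.69 and 0.19 to 0.54 for St18. For Myt1 it gave -0.21 to -0.045 and -0.24 to -0.057, and for Myt1l -0.12 to -0.055 and -0.12 to -0.0018.

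Among 11 corepressor partners of the family, 3 rose in maturing excitatory neurons of KO embryos and 0 fell, where 2.49% of all genes were called. These were Phf21a (0.73 ± 0.08, adjusted p = 0.00049), a reader of unmethylated H3K4 in the LSD1 complex, Rcor1 (0.50 ± 0.09, adjusted p = 0.00698), its CoREST scaffold, and Hmg20b (0.71 ± 0.17, adjusted p = 0.0378), another subunit. The list's median was 0.05 and that of all genes -0.01. This list and those below were chosen with earlier results of these data known, so counts beside the share of all genes are descriptions. The study itself names Phf21a among genes dysregulated in deep layer excitatory neurons. Leaving out 1 embryo ended no call of Phf21a or Rcor1 in this class, but the Hmg20b call was lost without WT 2, WT 3, KO 2 or KO 3 (adjusted p = 0.129, 0.149, 0.167 and 0.0567, edgeR), and in run 1 the adjusted p was 0.0963 for Rcor1 and 0.512 for Hmg20b. With the finer clustering both calls were lost as well, Rcor1 at 0.42 (adjusted p = 0.0593, edgeR) and Hmg20b at 0.45 (0.392). The Hmg20b call was also lost in run 2 alone (0.0683) and with only the 6 embryos compared (0.0577). Phf21a also rose in other excitatory neurons (0.58 ± 0.08, adjusted p = 0.00473) and in Cajal-Retzius cells (0.63 ± 0.10, adjusted p = 0.00639, 0.101 without WT 1 and 0.260 with the finer clustering, whose class holds other nuclei besides), where 0.773% and 0.194% of all genes were called. In the remaining 6 classes, where at most 0.0269% of all genes were called, 0 of 11 passed.

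A further list of 17 genes held members of the Notch pathway and its Hes and Hey targets together with Id1, Id3 and Sox9, other genes of progenitors. Of these, 13 were tested in maturing excitatory neurons and 1 rose, Rbpj (0.39 ± 0.08, adjusted p = 0.0184), the DNA-binding partner of Notch, with a list median of 0.21 against -0.01 for all genes. The Rbpj call was lost without WT 2, WT 3 or KO 2 (adjusted p = 0.0694, 0.0861 and 0.105, edgeR) and in run 1 (0.700). Maml2, a coactivator of that complex, rose in other excitatory neurons (0.88 ± 0.10, adjusted p = 0.00139, 0.773% of all genes called), also without any 1 embryo. It rose in inhibitory neurons (0.61 ± 0.08, adjusted p = 0.0225, 0.0268% called), but there the call was lost without any 1 embryo other than WT 2 (adjusted p 0.0501 to 0.157, edgeR) and in run 1 (1.00). With only the 6 embryos compared the Maml2 call was lost there as well (adjusted p = 0.131, edgeR). In radial glia, where 0% of all genes were called, 0 of 17 passed, with a median of -0.05. None of the 7 neurogenic co-factors passed in any class, where at most 2.49% of all genes were called, with medians between -0.16 and 0.05. In Het embryos 0 genes of these lists passed in any class.

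The annotation places Gm20208 and the antisense gene C630031E19Rik over Myt1l on the opposite strand, and the sources used here do not say whether counting used strand. Their own UMIs came to 0.145% and 0.0904% of those of Myt1l, and in maturing excitatory neurons their KO changes were -0.18 ± 0.29 and 0.62 ± 0.35 (adjusted p = 0.844 and 0.449, edgeR). No annotated gene overlaps Myt1 or St18.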

How the data were processed

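Nuclear RNA of 9 embryos was sequenced in 2 runs, 18 libraries in all. The authors mapped reads to mm10 with ScaleRna, called nuclei with its CellFinder and deposited a matrix for each library, whose values are expected counts (UMIs by nucleus, with 6.7 to 8.71% of entries not whole). Their processing notes also name Seurat 4.3.0, Scanpy 1.12.0 and DESeq2 1.38.3. Neither the gene annotation nor strand use in counting is stated in the sources read here. The members' versioned identifiers matched GENCODE vM21 (GRCm38, the assembly of mm10).

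The study's limits were applied to barcodes, namely UMIs from 800 to 6000, genes from 300 to 3000, a mitochondrial share up to 1% and log(genes)/log(UMIs) from 0.9 upward. Of 261143 barcodes, 200774 passed, and 194590 remained after the 5% with the highest Scrublet scores had been removed from each library. The study used DoubletFinder for this step. The medians were 2519 UMIs and 1537 genes. Barcodes shared between libraries numbered 157 within an embryo and 1717 between embryos, and all were kept. Log-normalized counts of 3000 variable genes, without the members, Xist, Tsix and Y-linked genes, were scaled to unit variance (limit 10) and gave 50 principal components, 20 neighbors and Leiden clusters at resolution 1 (scanpy 1.11.5, igraph 0.11.9).

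A cluster took a class name where at least 3 markers of a list were detected (10 CPM, 1.5-fold over other nuclei), the share of markers and their mean fold named the same class, and its 10 leading genes (at least 50 CPM) did not name another more. Where share and fold differed, the leading genes decided, and otherwise the cluster stayed unnamed. This rule, and the demand for Trp73 in Cajal-Retzius cells, were set after seeing the data. The members and all gene lists were chosen with earlier results of these data known.

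Counts were summed per embryo and class over both runs, rounded after summing, and tested with edgeR 4.0.16 in R 4.3.3 (filterByExpr, TMM, two-sided quasi-likelihood test), fitting genotype to the 9 embryos together wherever each contributed 20 nuclei or more to the class. All genes were fitted, p-values were adjusted over all of them (Benjamini-Hochberg), and a call needed an adjusted p under 0.05 and a log2 fold change beyond 0.2. Intervals cover 95% and come from the F statistic of each fit. MGE-type nuclei are part of the inhibitory neurons. CGE-type and striatal projection nuclei are part of them too, but were described by level and not fitted on their own. The difference between classes was tested with the embryo, the class and its products with Het and KO. Levels across classes carry no test, since the classes were built from the same nuclei. The named genes are the members, the 5 genes with the highest correlation to each over clusters (at least 500 nuclei and 20 in each embryo) among genes with at least 20 CPM in 1 of them, and the called genes of the lists. Some genes that this rule names, or that led a cluster, are not reported here.

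On simulated counts for KO against WT in maturing excitatory neurons (14375 genes, 200 changed), 77 of 100 genes changed by 0.5 on the log2 scale and 100 of 100 changed by 1 were called, with 12 false calls. The changed genes were drawn only from genes above a floor of expression, and the simulated embryos deviated independently. Changes below 0.5, the size of most estimates of the members, were not simulated. Same-numbered embryos of different genotype deviated together in 9 of 9 pairs (r over 0.1) in radial glia, intermediate progenitors, newborn and maturing excitatory neurons and inhibitory neurons, and not in every pair in the other 4 classes. In other excitatory and MGE-type neurons and in inhibitory progenitors the 3 pairs of WT and KO did, and at least 1 pair with Het did not. The replicate numbers come from the titles, which do not tie them to litters, so the pairing rests on these data. Blocked values are given beside the KO results they change, except in Cajal-Retzius cells. P-values of the genotype tests set a difference against a modelled spread between embryos. Intervals of shares are SDs over embryos, and low counts carry counting error besides.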

Additional observations from a re-analysis of the deposited data

How the results depend on the processing

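Of the log2 fold changes of the members recomputed under the alternatives, 1011 kept their direction and their side of the threshold, 22 became calls, 4 lost the call and 43 changed sign. Of the WT levels, 96 moved by less than the SD between embryos and 12 by more, all of them at resolution 2. Leaving out 1 of 3 embryos cannot move a mean by their SD. Most of the 96 therefore carry no information, and only resolution 2 could show a move. The Myt1l call in maturing excitatory neurons of KO embryos was lost in run 1 alone (0.27) and with the finer clustering at resolution 2 (0.27), and leaving out 1 embryo gave 0.33 to 0.42, with the call lost without WT 3 and without KO 2. Changes that became calls were the following, in KO. With DESeq2 they were Myt1 (0.31) and Myt1l (0.38) in other excitatory and Myt1l (0.32) in MGE-type neurons. With no filter on low counts they were Myt1l in newborn (0.32), other excitatory (0.38), inhibitory (0.29) and MGE-type neurons (0.32), Myt1 in other excitatory neurons (0.30) and St18 in Cajal-Retzius cells (0.76). In run 2 alone (0.40) and at resolution 2 (0.40) it was Myt1l in other excitatory neurons. Leaving out 1 embryo gave 0.30 to 0.46 for Myt1l and 0.28 to 0.36 for Myt1 in other excitatory neurons, both calls without KO 3, and 0.48 to 1.14 for St18 in Cajal-Retzius cells, a call without WT 2.

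With the replicate number as a block, Myt1l was called in newborn (0.31) and inhibitory neurons (0.30) and Myt1 in maturing excitatory neurons (0.27). It also called St18 (0.27), Myt1 (0.31) and Myt1l (0.38) in other excitatory and Myt1l (0.32) in MGE-type neurons, where the WT and KO pairs deviated together but not every pair with Het, and St18 (0.78) in Cajal-Retzius cells, where most pairs did not. It changed no other call of a member.

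No estimate that changed sign was a call. In radial glia, KO estimates were -0.31 (resolution 2) and -0.41 (run 1) for St18, and 0.048 (no doublet removal), 0.20 (no upper limits) and 0.008 (resolution 2) for Myt1l, and the Het estimate of Myt1l was -0.015 in run 1. In excitatory intermediate progenitors, KO estimates of Myt1 were -0.01 (resolution 2) and -0.034 (run 1), those of Myt1l were 0.016 (no doublet removal), 0.0295 (no upper limits), 0.14 (resolution 2) and 0.0101 (run 2), and the Het estimate of Myt1l was -0.035 (resolution 2). In inhibitory progenitors, KO estimates of Myt1l were 0.11 (no upper limits) and 0.12 (run 1), that of Myt1 was -0.051 (run 2), and Het estimates in run 1 were -0.0335 for St18 and 0.0101 for Myt1. The KO estimate of St18 in newborn excitatory neurons was -0.18 in run 1. In MGE-type neurons that of Myt1 was -0.026 in run 1, and the Het estimate of St18 was 0.0045 in run 2. Leaving out 1 embryo gave, in KO, ranges of -0.31 to 0.31 (St18), -0.20 to 0.34 (Myt1) and -0.53 to 0.25 (Myt1l) in radial glia, -0.0256 to 0.12 (Myt1) and -0.27 to 0.13 (Myt1l) in excitatory intermediate progenitors, -0.0099 to 0.073 (Myt1) and -0.17 to 0.088 (Myt1l) in inhibitory progenitors, and -0.41 to 0.0106 (St18) in maturing excitatory neurons. In Het the ranges were -0.039 to 0.27 (Myt1) and -0.074 to 0.53 (Myt1l) in radial glia, -0.40 to 0.024 (St18) in maturing excitatory neurons, and -0.17 to 0.50 (St18) and -0.0504 to 0.30 (Myt1) in Cajal-Retzius cells. The cause of these changes was not tested.

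At resolution 2 the WT levels of Myt1 were 25.0 CPM in radial glia, 352 in intermediate progenitors, 192 in newborn and 80.4 in maturing excitatory neurons and 89.4 in the Cajal-Retzius class. Those of Myt1l were 173 CPM in intermediate progenitors, 2154 in newborn and 1386 in maturing excitatory neurons, 260 in inhibitory progenitors and 1483 in the Cajal-Retzius class, and those of St18 were 151 CPM in intermediate progenitors and 59.0 in newborn excitatory neurons. The Cajal-Retzius class at resolution 2 is not the same population, since it held 3681 nuclei of a cluster with 4 of 8 markers, led among others by Sim1, Samd3 and Car10, beside 2052 nuclei of the cluster led by Trp73 and Reln.

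Numbers of genes called in KO moved by over 1.5 times. Against 364 in maturing excitatory neurons stood 682 (no filter), 1150 (replicate block), 116 (resolution 2) and 18 (run 1), against 122 in other excitatory neurons 217 (DESeq2), 484 (no filter), 889 (replicate block) and 6 (run 1), against 0 in newborn excitatory neurons 56 (no filter) and 74 (replicate block), and against 5 in inhibitory neurons 33 (DESeq2), 118 (no filter), 137 (replicate block) and 0 (run 1). Against 17 in Cajal-Retzius cells stood 33 (DESeq2), 102 (no filter), 89 (replicate block) and 0 (resolution 2, in the mixed class above), and against 4 in MGE-type neurons 31 (DESeq2), 106 (no filter), 105 (replicate block), 10 (no doublet removal), 7 (run 2), 0 (run 1), 0 without WT 2 and 2 without WT 1 or WT 3. Without the filter, 20 genes were called in radial glia and 12 in intermediate progenitors, against 0. In Het, against 0, 7 to 33 genes were called with no filter in the 9 classes, and 7 in maturing excitatory neurons and 1 each in newborn excitatory, other excitatory and inhibitory neurons with the replicate block. In KO, leaving out 1 embryo gave 31 to 252 genes in other excitatory neurons, with 252 without KO 3, and 0 to 3 in inhibitory neurons, with 0 in 7 of 9 cases. In maturing excitatory neurons 151 were called without KO 2, 179 without WT 2, 188 without WT 3 and 222 without WT 1, and in Cajal-Retzius cells 4 without WT 1 and 48 without KO 1. Cajal-Retzius cells in run 1 alone were not run, with under 20 nuclei in an embryo. Among the 9 classes, the smallest WT sums were 129 UMIs of Myt1 and 152 of St18, both in Cajal-Retzius cells.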
